A study of Homo sapiens with 27 samples.

Results

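The expression of 8 genes of the intestinal epithelium was followed in human colorectal cancer (CRC) cell lines. They were the transcription factors CDX2, HNF4A and CDX1 and the enterocyte genes VIL1, CDH17, LGALS4, DPP4 and FABP1. The list of 8 was drawn up with earlier results of these data known, and its rows were found by gene symbol alone. Each gene was found once in every table, and together they are 8 of the 26255 genes listed.

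RNA was sequenced from HCT116, SW480 and DLD-1 cells, all of them human CRC lines. Each line was held as untreated cells (WT), as cells resistant to fluorouracil (5-FU res) and as cells resistant to oxaliplatin (OX res). Each of these 9 groups had 3 libraries, 27 in all. Fluorouracil is a pyrimidine analogue that blocks thymidylate synthesis, and oxaliplatin is a platinum drug that binds DNA. By the labels, the resistant cells had been kept for about 6 months in 5 to 70 µM fluorouracil or 5 to 35 µM oxaliplatin, and they name no transgene or deletion in any group. The methods describe surviving HCT116 and SW480 cells passaged under a rising drug concentration, and DLD-1 cells are described by the labels alone. The sources name 1 resistant line per drug and parental line and leave unsaid whether a group's 3 libraries were grown separately. The spread behind every p-value is therefore that between libraries and may be technical. Below, under 5-FU or under OX means a resistant group against its WT cells, and not the action of the drug itself.

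CDX2 and CDX1 are homeobox factors that set and maintain the identity of the intestinal epithelium. HNF4A is a nuclear receptor that acts beside them at genes of the absorptive cells. These cells, the enterocytes, carry a brush border of microvilli bundled by villin (VIL1), hold digestive peptidases such as DPP4 in its membrane, adhere through the cadherin CDH17, and handle lipid with carriers such as FABP1. CRC cells keep this programme to unequal degrees, and loss of CDX2 is used in pathology as a sign of poor differentiation.

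Levels are given as TPM, the share of a gene in a library after correction for transcript length, and can be set side by side between genes. Differences between groups are log2 fold changes of TPM + 1 from limma. A gene was called higher or lower where the p adjusted by Benjamini and Hochberg over all genes tested was under 0.05 and the log2 fold change went beyond 1 either way. A gene was tested within a line if at least 3 of the 9 libraries reached 1 TPM. By that filter 2 of the 8 genes were tested in HCT116 (CDX2 and DPP4), 3 in SW480 (CDX2, HNF4A and VIL1) and 5 in DLD-1 (CDX2, HNF4A, CDH17, LGALS4 and DPP4). CDX1 and FABP1 passed it nowhere. A gene can pass through the one group in which it is high, so these numbers are no measure of change.

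Over all genes, the median log2 fold change against WT was 0.18 for 5-FU and 0.60 for OX in HCT116, 0.44 and 0.36 in SW480, and -0.03 and 0.13 in DLD-1. Changes relative to this median are given where it alters a reading. The depth of the libraries, read from the steps of their low values, ran from 0.721 to 1.13 of that of the first HCT116 WT library. Libraries of a group correlated at 0.986 to 0.993 across 15801 genes, and 18 of 18 resistant libraries were closest to the WT cells of their own line. The DLD-1 libraries carry a separate run of library names, so line and library set cannot be told apart where DLD-1 is compared with the other lines. Of 6 markers of colorectal epithelium, 5 or 6 had a mean of 1 TPM or more in each group, and their sum ran from 5687 to 20830 TPM. The sums of fibroblast, leukocyte, endothelial and hepatocyte markers were at most 17.8, 71.1, 2.09 and 134 TPM, carried by COL1A1, CD68, VWF and SERPINA1, while APOA2 was at 0 in all SW480 and DLD-1 libraries.

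**Figure D1:**
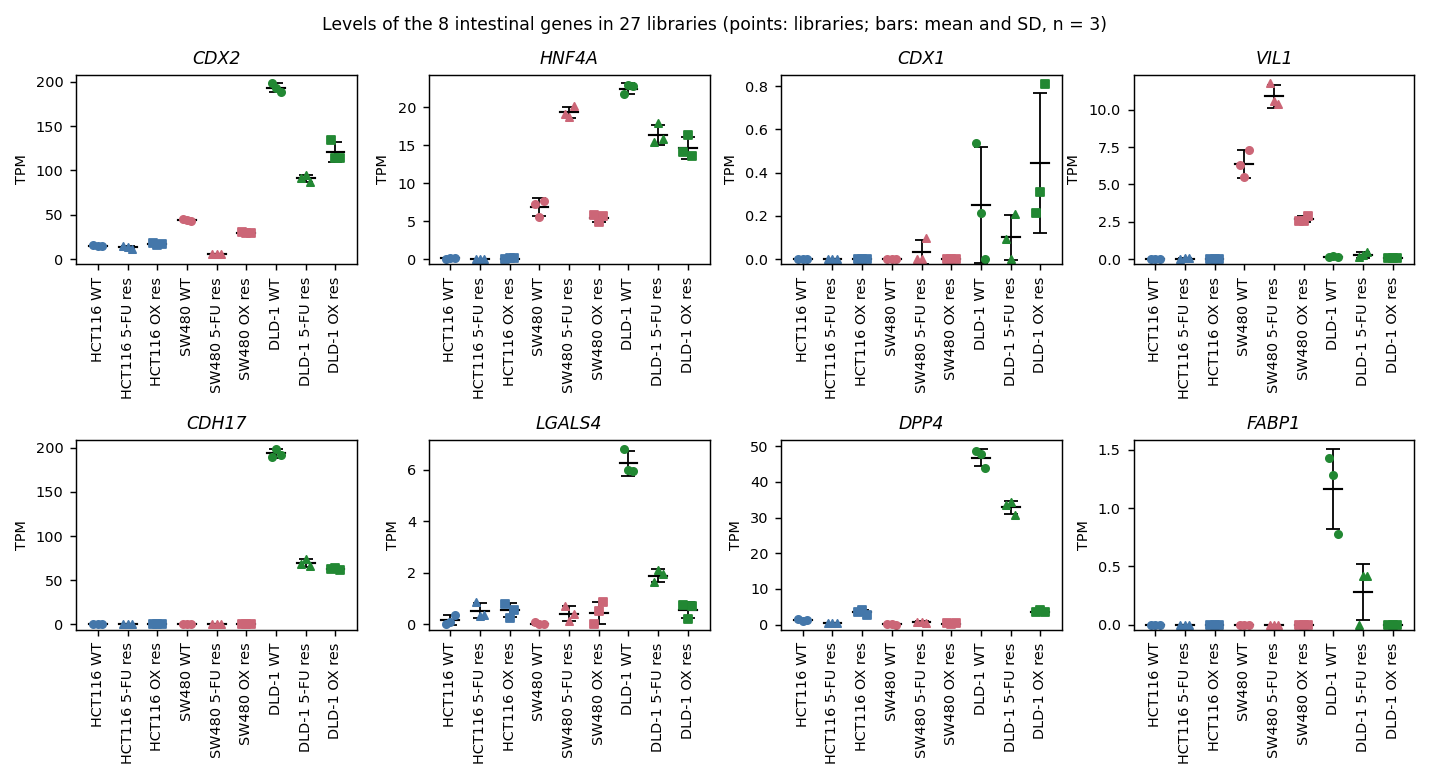
Level in TPM (vertical axis, a separate scale for each gene) of the 8 genes in the 27 libraries, ordered by line and group along the horizontal axis; points are libraries and bars the mean and SD of 3. CDX2 was present in all groups, and VIL1 reached 1 TPM in SW480 alone. The means of CDX2, HNF4A, CDH17, LGALS4, DPP4 and FABP1 were highest in DLD-1 WT.

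CDX2 (chr13:28535055-28543452, minus strand, GRCh37) was detected in all 27 libraries. In WT cells it stood at 198, 193 and 189 TPM in DLD-1, at 45.5, 44.5 and 43.2 TPM in SW480 and at 15.7, 14.4 and 15.3 TPM in HCT116. The 3 lines did not overlap, and the mean of DLD-1 WT was 4.36 times that of SW480 WT and 12.8 times that of HCT116 WT. The log2 difference was -2.1 for SW480 against DLD-1 (SE 0.068; adjusted p = 2.63e-18) and -1.50 for HCT116 against SW480 (SE 0.068; adjusted p = 2.37e-15).

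The largest difference of CDX2 between resistant and WT cells was in SW480 5-FU res. Its 3 libraries held 5.78, 5.54 and 5.68 TPM, the lowest of all 9 groups, against at least 43.2 TPM in each SW480 WT library. CDX2 fell by 2.77 on the log2 scale there (SE 0.065; adjusted p = 1.83e-10), and its mean level in WT was 7.84 times that of the resistant cells. SW480 OX res held 30.3, 29.8 and 29.5 TPM, also below every WT library, at a log2 fold change of -0.56 that did not reach the threshold of 1. In bulk RNA, fewer cells with a transcript and less of it per cell cannot be told apart. In SW480 5-FU res the epithelial markers CDH1, EPCAM and KRT19 were also lower than in WT, at log2 fold changes of -2.11, -1.61 and -1.03, although the sum of the 6 markers was 8711 to 9014 TPM against 8719 to 9148 TPM in WT. The leukocyte markers summed to 28.9 to 32.4 TPM there, against 8.45 to 9.78 TPM in WT, and the 3 tested, CD14, CD68 and LYZ, were called higher at 1.34, 1.55 and 1.59. CD68 stood at 19.1 TPM and PTPRC, the pan-leukocyte antigen, at 0.0331 TPM. The fibroblast markers summed to 4.95 to 5.45 TPM against 1.01 to 1.46 TPM in WT, with PDGFRB at 1.93 TPM against 0.217 TPM in WT. The part of these genes in the CDX2 result was not tested.

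Both DLD-1 resistant groups had less CDX2 than WT. The 5-FU res libraries held 91.0, 94.8 and 87.3 TPM and the OX res libraries 134, 114 and 114 TPM, against 189 TPM or more in WT, and no pair of the 3 groups overlapped. CDX2 fell by 1.08 on the log2 scale in 5-FU res (SE 0.0625; adjusted p = 7.31e-08), and in OX res the log2 fold change of -0.68 stayed under the threshold. DLD-1 5-FU res cells had 2.05 times the CDX2 level of SW480 WT cells.

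In HCT116 the 3 groups lay close together. CDX2 stood at 14.7, 13.3 and 11.8 TPM in 5-FU res and at 18.5, 16 and 17.5 TPM in OX res, and the WT range overlapped that of 5-FU res. Neither comparison with WT passed the test, at log2 fold changes of -0.18 (adjusted p = 0.0874) and 0.19 (adjusted p = 0.0643). Relative to the median of all genes both were negative, at -0.36 and -0.41, and the positive sign in OX res turned to -0.34 with FPKM as deposited and to -0.44 with median-of-ratios scaling. Over the 9 groups the order of CDX2 from high to low was DLD-1 WT, DLD-1 OX res, DLD-1 5-FU res, SW480 WT, SW480 OX res, HCT116 OX res, HCT116 WT, HCT116 5-FU res and SW480 5-FU res, with 34.2 times between the ends. The only neighbours whose libraries overlapped were HCT116 WT and HCT116 5-FU res.

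HNF4A (chr20:42984339-43061485, plus strand, GRCh37) was close to absent from HCT116 and present in the other lines. HCT116 libraries ran from 0 to 0.173 TPM in all 3 groups. SW480 WT held 7.27, 5.50 and 7.72 TPM and DLD-1 WT 21.7, 23.0 and 22.8 TPM. All 3 WT lines differed by the test, with log2 differences of -2.82 for HCT116 against SW480 (adjusted p = 1.42e-17) and -1.60 for SW480 against DLD-1 (adjusted p = 4.96e-13). An antisense gene, HNF4A-AS1, overlaps HNF4A on the other strand, and the sources do not say whether the authors' counting used strand, so reads of the pair may be mixed.

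In SW480 5-FU res, where CDX2 was lowest, HNF4A was higher than in WT. Its libraries stood at 19.1, 18.8 and 20.2 TPM, all above the highest WT library at 7.72 TPM. HNF4A rose by a log2 fold change of 1.39 (SE 0.12; adjusted p = 1.63e-06), 2.83 times on the TPM scale. The call depended on the scaling, with 0.93 under either FPKM as deposited or median-of-ratios scaling, and the change was 0.95 relative to the median of all genes. The hepatocyte markers, of another tissue that expresses HNF4A, summed to 94.9 to 101 TPM in these cells and 93.3 to 98.8 TPM in WT, and TTR and APOA2 were at 0 in both. SW480 OX res held 5.78, 4.88 and 5.68 TPM, overlapping WT, at a log2 fold change of -0.27 (adjusted p = 0.0615).

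DLD-1 WT had the highest HNF4A level, and both resistant groups lay below it. The 5-FU res libraries held 15.4, 17.9 and 15.9 TPM and the OX res libraries 14.1, 16.3 and 13.7 TPM, all under the lowest WT library at 21.7 TPM. The log2 fold changes of -0.44 (adjusted p = 0.000848) and -0.59 (adjusted p = 9.07e-05) were under the threshold of 1. SW480 5-FU res ranked next below DLD-1 WT and above both DLD-1 resistant groups, which overlapped each other.

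**Figure D2:**
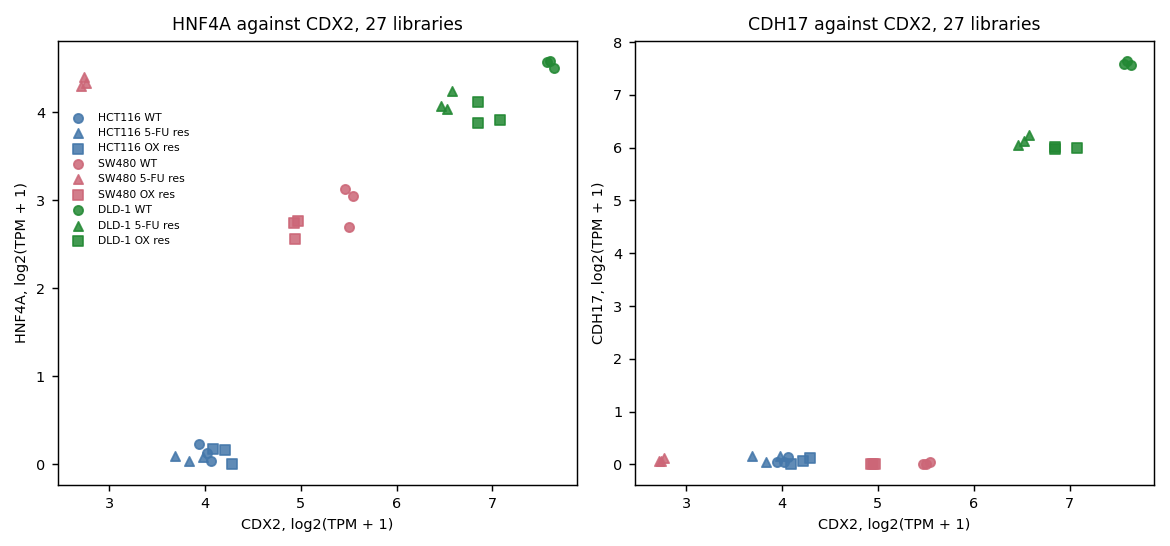
Log2(TPM + 1) of HNF4A (left) and CDH17 (right) on the vertical axis against log2(TPM + 1) of CDX2 on the horizontal axis, each point 1 of 27 libraries, with colour for the line and shape for the group. SW480 5-FU res had the lowest CDX2 and the second highest mean of HNF4A, and CDH17 was above 60 TPM in the 9 DLD-1 libraries alone.

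Across the 9 group means of log2(TPM + 1), CDX2 and HNF4A correlated at 0.548 and CDX2 and CDH17 at 0.877. These describe 9 points that come from 3 lines. HNF4A ranked differently from CDX2 in SW480 5-FU res, the group with the lowest CDX2, and CDH17 separated the 3 DLD-1 groups from the other 6.

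CDX1 (chr5:149546341-149564121, plus strand, GRCh37), the other caudal-type factor, was near 0 throughout. Its values step in whole reads, which allowed the reads to be counted. DLD-1 WT held 8 reads in all (0.535, 0.213 and 0 TPM), DLD-1 5-FU res 3 reads (0.094, 0 and 0.208 TPM) and DLD-1 OX res 12 reads (0.213, 0.309 and 0.813 TPM). Of the 18 HCT116 and SW480 libraries, 1 had a single read. DLD-1 WT overlapped both resistant groups, while each OX res library lay above the 5-FU res libraries, the closest pair at 0.213 and 0.208 TPM. HCT116 WT and SW480 WT were both at 0, and with 3 reads per library as their floor the mean of DLD-1 OX res was 2.11 and 1.997 times that floor. The mean rests on 2, 2 and 8 reads, whose own counting error these ratios leave out. DLD-1 OX res replicate 1, at 0.213 TPM, lay under the SW480 WT floor of 0.223 TPM. CDX1 was too low to be tested in any line, and 3 reads were worth 0.195 to 0.462 TPM.

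VIL1 (chr2:219283844-219318018, plus strand, GRCh37), which bundles the actin of microvilli, was a gene of SW480 in these lines. SW480 WT held 6.31, 5.49 and 7.33 TPM, whereas HCT116 WT was at 0 in its 3 libraries and DLD-1 WT at 0.167, 0.200 and 0.120 TPM, or 2 to 3 reads each. The mean of SW480 WT was at least 48.5-fold higher than HCT116 WT, taking 3 reads per library as the floor, and 39.3 times that of DLD-1 WT. On the log2 scale VIL1 was higher in SW480 WT than in DLD-1 WT by 2.66. VIL1 entered the fit of 27 libraries only through SW480 and had to differ, so this difference is a value and not a test result. DLD-1, the line with the most CDX2 and HNF4A, was thus not the one with VIL1. USP37 overlaps VIL1 on the other strand, with the same limit on strand as for HNF4A.

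In SW480 the 2 resistant groups lay on opposite sides of WT for VIL1. The 5-FU res libraries held 11.8, 10.6 and 10.4 TPM, all above WT, and the OX res libraries 2.57, 2.54 and 2.89 TPM, all below it. In OX res VIL1 fell by 1.0015 on the log2 scale (SE 0.113; adjusted p = 1.99e-05), just past the threshold, and the call was lost without OX res replicate 1 (-0.98), OX res replicate 2 (-0.98) or WT replicate 3 (-0.91). In 5-FU res the log2 fold change was 0.69 (adjusted p = 0.000206), under the threshold, and it shrank to 0.27 with FPKM as deposited, to 0.24 with median-of-ratios scaling and to 0.25 relative to the median of all genes. Between the resistant groups the difference of 1.70 passed the test (SE 0.113; adjusted p = 5.04e-07), and 5-FU res held 4.08 times the level of OX res. In SW480 OX res the epithelial marker CDH1 was also lower than in WT at -2.15, and the leukocyte markers CD68 and LYZ were higher at 1.46 and 1.21, with a sum of 24.2 to 28.5 TPM for the 6 leukocyte markers against 8.45 to 9.78 TPM in WT. The part of these genes in the VIL1 and CDX2 values of OX res was not tested. HCT116 libraries had 0 or 1 read in each group, and the DLD-1 resistant groups ran from 0.0634 to 0.454 TPM.

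CDH17 (chr8:95139390-95229531, minus strand, GRCh37), a cadherin of the intestinal epithelium, separated DLD-1 from the other lines. DLD-1 WT held 189, 199 and 192 TPM, a level like that of CDX2 in the same cells. HCT116 and SW480 libraries held 0 to 3 reads each in all 6 groups, at most 0.118 TPM. The log2 difference was -7.53 for HCT116 against DLD-1 (SE 0.0637) and -7.59 for SW480 against DLD-1 (SE 0.0637). CDH17 entered the fit of 27 libraries only through DLD-1 and had to differ, so these differences are values and not test results. A ribosomal protein pseudogene, RPL6P23, lies within CDH17 on the same strand.

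CDH17 was lower than WT in both DLD-1 resistant groups. The 5-FU res libraries held 68.9, 74.3 and 65.6 TPM and the OX res libraries 62.8, 63.5 and 61.8 TPM, none near the WT range. CDH17 fell by 1.46 on the log2 scale in 5-FU res (SE 0.0503; adjusted p = 1.27e-09) and fell by 1.61 in OX res (SE 0.0503; adjusted p = 4.5e-10). The resistant groups did not overlap, but their log2 difference of 0.15 (adjusted p = 0.0223) was under the threshold. For comparison, the log2 fold changes of CDX2 in the same libraries were -1.08 in 5-FU res, which passed the test, and -0.68 in OX res, which did not.

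LGALS4 (chr19:39292311-39303585, minus strand, GRCh37), a galectin of the gut epithelium, showed the same order of groups in DLD-1 at a far lower level. DLD-1 WT held 6.82, 5.99 and 5.96 TPM, 5-FU res 1.63, 2.1 and 1.95 TPM, and OX res 0.768, 0.223 and 0.733 TPM, with no overlap between the 3 groups. LGALS4 fell by 1.33 on the log2 scale in 5-FU res (SE 0.156; adjusted p = 2.57e-05) and fell by 2.22 in OX res (SE 0.156; adjusted p = 3.93e-07). The reads behind these values were 135 in the 3 WT libraries, 39 in 5-FU res and 11 in OX res. HCT116 and SW480 libraries had 0 to 7 reads each, and DLD-1 OX res overlapped the HCT116 OX res libraries, which ran from 0.259 to 0.803 TPM.

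DPP4 (chr2:162848755-162930904, minus strand, GRCh37), a peptidase of the brush border membrane, showed the largest difference of the 8 genes between a resistant group and its WT cells. DLD-1 WT held 48.7, 47.9 and 44 TPM and DLD-1 OX res 3.4, 3.98 and 3.45 TPM. DPP4 fell by 3.38 on the log2 scale (SE 0.0741; adjusted p = 8.71e-11), a mean 13.0 times lower in TPM. The 5-FU res libraries, at 33.5, 34.3 and 30.7 TPM, also lay below WT, at a log2 fold change of -0.50 that was under the threshold. Between the resistant groups DPP4 differed by 2.88 (SE 0.0741; adjusted p = 4.92e-11). DPP4-DT is transcribed from the other strand at the start of DPP4.

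In HCT116 the 2 resistant groups lay on opposite sides of WT for DPP4, at a low level. WT held 1.51, 1.04 and 1.29 TPM, 5-FU res 0.335, 0.373 and 0.336 TPM, and OX res 3.56, 3.95 and 2.73 TPM, with no overlap. Against WT the log2 fold changes of -0.75 (adjusted p = 0.00028) and 0.95 (adjusted p = 2.86e-05) stayed under the threshold, while 5-FU res was lower than OX res by -1.70 (SE 0.134; adjusted p = 2.03e-07). The addition of 1 to values near 1 TPM shrinks such differences: with 0.1 added, the changes against WT were -1.61 and 1.35 and both were called. Leaving out OX res replicate 3 or WT replicate 1 also brought the change in OX res past 1, to 1.06 and 1.02. OX res kept a positive value of 0.35 relative to the median of all genes.

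SW480 had little DPP4, and it was not tested within that line. WT libraries held 0.0292, 0.0583 and 0 TPM, or 0 to 2 reads, 5-FU res 0.835, 0.744 and 0.540 TPM, or 13 to 20 reads, and OX res 0.312, 0.150 and 0.339 TPM, or 3 to 8 reads. The 3 groups did not overlap. HCT116 WT exceeded SW480 WT by 1.14 on the log2 scale (SE 0.101; adjusted p = 5.17e-10), with 0.90 under FPKM as deposited.

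FABP1 (chr2:88422501-88427581, minus strand, GRCh37), the liver-type fatty acid binding protein that enterocytes also hold, was seen in DLD-1 only, as a few reads. DLD-1 WT held 1.43, 1.29 and 0.777 TPM, or 9 reads in all, 5-FU res 0, 0.421 and 0.417 TPM, or 2 reads, and OX res 0. FABP1 is short, so that 3 reads in a library were worth 0.783 to 1.86 TPM. All HCT116 and SW480 libraries were at 0. Differences in FABP1 below these levels were not detectable at this depth.

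The bases before the start of 4 members are shown because their levels moved or, for FABP1, because it is a textbook gene of the CDX and HNF4 factors. The sequences are the 250 bases upstream of the start in RefSeq (GRCh38.p14), read 5′ to 3′ on the strand of the gene. Of the 8 members 5 had an entry, with 2 starts for HNF4A, and CDX1, VIL1 and CDH17 had none. Capitals mark matches to a CDX core, TTTATNG or its reverse CNATAAA. The HNF4 core CAAAGNNCA or TGNNCTTTG was searched on both strands as well.
CDX2 (chr13:27969316-27969565, minus strand): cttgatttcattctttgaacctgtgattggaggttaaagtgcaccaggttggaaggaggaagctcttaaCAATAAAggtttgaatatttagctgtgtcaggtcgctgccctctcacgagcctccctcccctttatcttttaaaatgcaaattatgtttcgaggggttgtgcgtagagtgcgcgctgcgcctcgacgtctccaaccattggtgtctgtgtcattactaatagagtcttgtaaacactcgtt
FABP1 (chr2:88128063-88128312, minus strand): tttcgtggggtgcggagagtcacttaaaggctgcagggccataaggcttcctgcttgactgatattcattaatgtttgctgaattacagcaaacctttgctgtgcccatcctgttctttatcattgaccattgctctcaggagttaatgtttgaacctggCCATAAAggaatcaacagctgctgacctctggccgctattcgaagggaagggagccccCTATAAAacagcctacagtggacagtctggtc
LGALS4 (chr19:38812946-38813195, minus strand): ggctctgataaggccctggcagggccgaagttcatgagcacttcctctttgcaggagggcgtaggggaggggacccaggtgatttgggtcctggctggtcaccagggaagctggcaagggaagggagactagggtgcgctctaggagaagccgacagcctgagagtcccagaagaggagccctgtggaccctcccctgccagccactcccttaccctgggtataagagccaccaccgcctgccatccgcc
DPP4 (chr2:162074216-162074465, minus strand): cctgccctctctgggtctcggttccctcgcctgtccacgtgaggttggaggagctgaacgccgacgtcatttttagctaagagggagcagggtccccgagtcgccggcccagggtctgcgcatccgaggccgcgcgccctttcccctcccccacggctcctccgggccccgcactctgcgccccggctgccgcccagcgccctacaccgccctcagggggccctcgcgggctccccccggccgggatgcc

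CDX2 itself had 1 match, CAATAAA, whose first base lay 181 bases before the start. FABP1 had CCATAAA at 90 bases and CTATAAA at 32 bases before the start, and the letters of the latter overlap those of a TATA box. No CDX core lay in the windows of LGALS4, DPP4 or either start of HNF4A, and no HNF4 core in any of the 6 windows. Of 35116 promoter windows of this length, 8.93% held a CDX core and 4.44% an HNF4 core. The share of G and C was 45.2% for CDX2, 48.0% for FABP1, 63.2% for LGALS4 and 73.6% for DPP4.

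The number of the 8 genes called in each comparison was set beside the share of all genes tested. The 8 were chosen with earlier results of these data known, so an excess over that share is a description. In DLD-1, 3 of 5 members were called in 5-FU res against WT (CDX2, CDH17 and LGALS4) and 3 of 5 in OX res against WT (CDH17, LGALS4 and DPP4), all lower, where 3.88% and 3.61% of all genes were called in either direction. Between the DLD-1 resistant groups 1 of 5 was called (DPP4), against 8.52% of all genes. In SW480, 2 of 3 were called in 5-FU res, CDX2 lower and HNF4A higher, against 21.2% of all genes. For OX res 1 of 3 was called (VIL1) against 15%, and between the resistant groups 3 of 3 against 11.1%. In HCT116 no member was called against WT, where 15.4% of all genes were called in 5-FU res and 33.3% in OX res. At an unadjusted p under 0.05 in limma 1 of 2, DPP4, passed in each of them. Between the HCT116 resistant groups 1 of 2 was called (DPP4), against 22.5%. In the lines with the least CDH17 and LGALS4 fewer members could be tested, so the shares of the lines do not count the same genes.

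**Figure D3:**
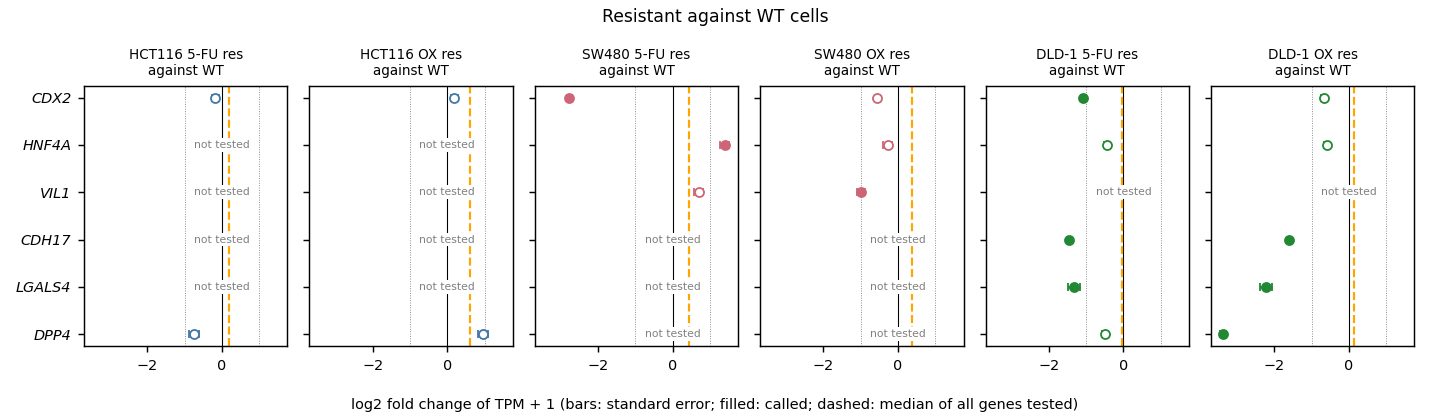
Log2 fold change of TPM + 1 (horizontal axis) of resistant against WT cells for the 6 members tested in at least 1 line (vertical axis), one panel for each line and drug. Bars are the standard error, filled points were called, dotted lines mark changes of 1 either way and the dashed line the median of all genes tested. All points of DLD-1 lay below 0, SW480 5-FU res had CDX2 far to the left and HNF4A to the right, and no HCT116 point was called.

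Between WT lines, 4 of 6 members were called for HCT116 against SW480, with CDX2, HNF4A and VIL1 lower and DPP4 higher in HCT116, where 25.1% of all genes were called. For HCT116 against DLD-1, 5 of 6 were lower in HCT116 against 34.5% of all genes, the exception being VIL1 at a log2 difference of -0.22. SW480 and DLD-1 differed in 6 of 6, with VIL1 alone higher in SW480, against 35.9%. CDH17 and LGALS4 reached 1 TPM in DLD-1 alone and VIL1 in SW480 alone, so these genes entered the fit of 27 libraries only through the line where they are high and had to differ between lines. The counts are therefore a description.

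Other genes of the same programme were counted from lists of 24 further intestinal transcription factors, 16 genes of brush border assembly, 27 enterocyte enzymes, carriers and lipid genes, 22 colonocyte genes and 13 foregut genes. Few of the 27 enterocyte genes were expressed: 4 were tested in HCT116 and 3 in each other line. Group means of sucrase-isomaltase (SI) were at most 0.0427 TPM, those of lactase (LCT) at most 0.307 TPM and those of FABP2 at most 0.0247 TPM, and MOGAT2 was at 0 in every library. FABP1 and CDX1 were near 0 beside them. DGAT1, the last step of triglyceride synthesis and not particular to the gut, was the highest of the list at up to 45.1 TPM.

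In DLD-1 the colonocyte genes were lower as well. Under 5-FU 6 of 10 tested were lower and none higher, with a list median of -1.36 against -0.03 for all genes. KRT20, the keratin of mature colonocytes, had the largest change at -2.72, followed by the surface antigen GPA33 at -2.53 and PHGR1 at -2.38. KRT20 went from 9.78 ± 0.879 TPM in WT to 0.648 ± 0.239 TPM (SD, n = 3). Under OX 4 of 10 were lower and 1 higher, with a median of -0.84 against 0.13. The higher call, PHGR1 at 1.003, was lost with a pseudocount of 0.1, with FPKM as deposited and with median-of-ratios scaling, where 5, 4 and 5 were lower. The lower ones were led by carbonic anhydrase CA12 at -2.13 and KRT20 at -1.44. The other transcription factors moved less: 1 of 18 was called under 5-FU, EHF at -1.52, and 2 of 18 under OX, FOXA3 at 1.37 and PRDM1 at 1.04, both higher, a count that became 0 with FPKM as deposited. By limma no brush border gene of 7 and no enterocyte gene of 3 was called under either drug, while 4 and 5 of the brush border genes and 3 and 2 of the enterocyte genes had an unadjusted p under 0.05 under 5-FU and OX. Of 5 foregut genes the trefoil peptide TFF2 was lower at -1.55 and the mucin MUC5AC higher at 1.49 under 5-FU. Under OX 2 were higher and 2 lower, led by the mucin MUC6 at 3.68, TFF2 at -2.54 and TFF1 at -2.52. Over all genes in DLD-1, 2.12% were higher and 1.76% lower under 5-FU and 2.7% and 0.913% under OX. Keratins KRT8, KRT18 and KRT19 were higher in DLD-1 OX res at 1.11, 1.24 and 1.17, and the 6 epithelial markers summed to 19280 to 20830 TPM there, against 9405 to 9749 TPM in WT.

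In SW480 most other transcription factors that were called were higher, unlike CDX2. Under 5-FU 6 of 15 were higher and 1 lower, with a median of 0.77 against 0.44 for all genes, led by EHF at 4.70, PRDM1 at 4.28 and ELF3 at 1.87. EHF, an ETS factor of epithelia, went from 2.46 ± 0.713 to 87.9 ± 6.01 TPM. PRDM1, which represses adult enterocyte genes in the fetal gut, went from 1.31 ± 0.129 to 43.8 ± 2.04 TPM. Under OX 9 of 15 were higher and none lower, with a median of 1.17 against 0.36, led by PRDM1 at 2.79, FOXA2 at 1.59 and EHF at 1.55. Of 13 foregut genes 3 were tested, and SOX2 and PGC reached 1 TPM in resistant libraries only, so the filter admitted them through the groups where they are high and their count is no result. Under 5-FU they stood at log2 fold changes of 3.62 for SOX2, 2.27 for TFF2 and 2.17 for PGC, and under OX SOX2 was at 2.06. TFF2, which was above 1 TPM in every SW480 library, went from 3.31 ± 0.487 TPM in WT to 19.7 ± 0.933 TPM in 5-FU res. SOX2 is the factor of stomach and oesophagus whose domain borders that of CDX2, and it stood at 14.0 ± 0.481 TPM in 5-FU res, 4.10 ± 0.342 TPM in OX res and 0.224 ± 0.0737 TPM in WT. Of 8 brush border genes ESPN was lower at -1.12 under 5-FU and none was called under OX (4 at an unadjusted p under 0.05). Of 3 enterocyte genes the peptidase ANPEP stood at 1.74 under 5-FU, and none was called under OX (2 at an unadjusted p under 0.05). The filter may have admitted ANPEP through 5-FU res alone, so its higher call is given as a value. Colonocyte genes were called in both directions, 3 of 5 higher and 1 lower under 5-FU (among them TMEM37 at 2.78 and TSPAN8 at 2.19) and 2 higher and 1 lower under OX (among them TSPAN8 at 2.12 and SLC26A2 at 1.14). Over all genes, 18.3% were higher and 2.85% lower under 5-FU and 13.7% and 1.22% under OX. With median-of-ratios scaling these splits became 8.18% and 8.06%, and 5.58% and 4.35%, and the transcription factors were then 3 higher and 1 lower under 5-FU and 5 higher and 1 lower under OX. The lower brush border genes went from 1 to 3 of 8 under 5-FU, and the higher colonocyte genes to 2 under 5-FU and 1 under OX.

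HCT116 had the fewest calls under 5-FU. They were FOXA3 at -1.11 of 15 transcription factors, USH1C, a scaffold of the microvillus tip, at -1.45 of 10 brush border genes, TMEM37 at -1.53 and KRT20 at -1.18 of 8 colonocyte genes, and ANXA10 at -1.19, the 1 foregut gene tested, all lower, where 11.6% of all genes were higher and 3.82% lower (7.22% and 7.75% with median-of-ratios scaling). KRT20 and ANXA10 were highest in WT, and the filter may have admitted them through that group alone, so their lower calls are given as values. None of 4 enterocyte genes was called, with 3 at an unadjusted p under 0.05. Under OX 4 of 15 transcription factors were higher and 4 lower, among them KLF4 at 2.85 and GATA6 at 1.76. The brush border linker EZR was lower at -1.86, and USH1C and EPS8 were higher at 1.18 and 1.07. Of 4 enterocyte genes the glucose carrier SLC5A1 was lower at -2.49 and ENPEP higher at 1.21. Colonocyte genes were split, with 3 higher and 2 lower, led by KRT20 at -2.02, CA2 at -1.72 and LGALS3 at 1.34, and the foregut gene was not called. The limit of the filter given for KRT20 under 5-FU holds here too, so its lower call is again a value. Over all genes 28.5% were higher and 4.83% lower. With median-of-ratios scaling this split became 10.2% and 13.4%, the higher calls of brush border, enterocyte and colonocyte genes went to 0, 3 of 4 enterocyte genes were lower, and the transcription factors were 3 higher and 6 lower. The epithelial markers EPCAM and CDH1 were lower in HCT116 OX res at -2.51 and -2.70, in cells where CDX2 differed from WT by 0.19.

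**Figure D4:**
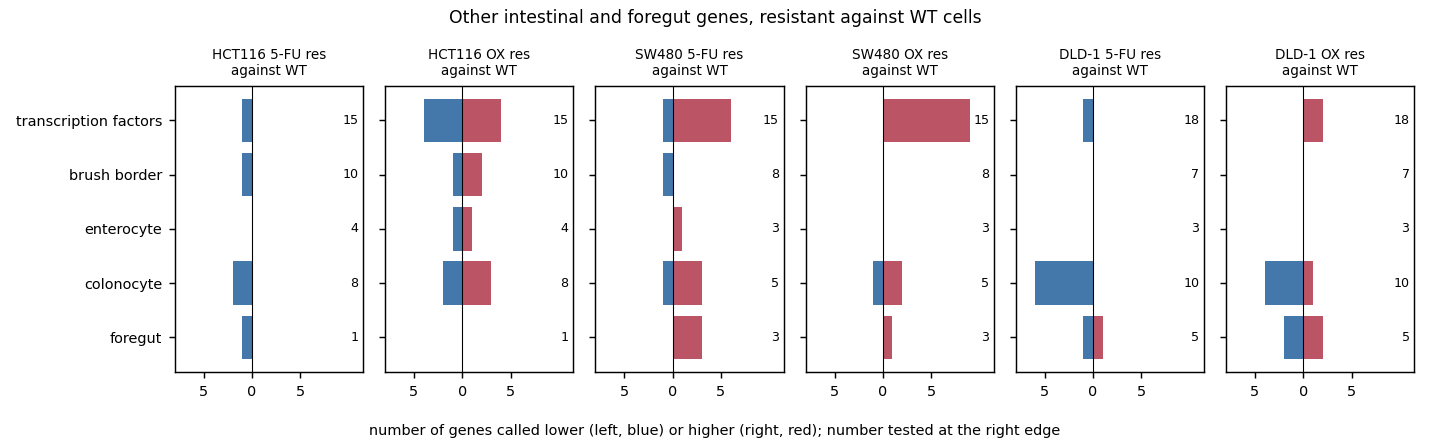
Number of genes called lower (to the left of 0) or higher (to the right of 0) in resistant against WT cells (horizontal axis) for the 5 other gene lists (vertical axis), one panel for each line and drug, with the number tested at the right edge. Lower colonocyte genes were 6 of 10 in DLD-1 5-FU res, where 1.76% of all genes were lower. Higher transcription factors were 9 of 15 in SW480 OX res, where 13.7% of all genes were higher. The latter count became 4 of 13 with FPKM as deposited.

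Genes whose group means followed those of a member most closely were sought among 6248 genes with means spanning at least 2 on the log2 scale, by Pearson's r over the 9 groups, without a test. For CDH17 they were the chloride channel CFTR (0.999), LINC01594 (0.999) and the trefoil peptide TFF3 (0.999). CFTR stood at 229 TPM in DLD-1 WT, 78.4 TPM in 5-FU res and 97.7 TPM in OX res, and at 0.124 TPM or less in the other 6 groups. For HNF4A they were PIP5K1B (0.997), ME3 (0.987) and CRB2 (0.987), with PIP5K1B at 17.5 TPM in SW480 5-FU res and 6.64 TPM in SW480 WT. For VIL1 they were FAM43B (0.995), KCNMA1 (0.993) and KCNJ4 (0.992), all 3 present in SW480 and at most 0.149 TPM in the other 6 groups. For CDX2 the likeness was looser, with MTIF2 (0.966), SNX4 (0.960) and NUDT16 (0.931). DPP4 had GATA6-AS1 (0.976), P2RY1 (0.966) and HOXD4 (0.957), and P2RY1 went from 41.2 TPM in DLD-1 WT to 5.66 TPM in OX res. For LGALS4 they were ITGA9 (0.973), CASP5 (0.932) and again HOXD4 (0.930). The 9 points come from 3 lines, so that a gene present in one line alone has 3 high points and 6 low ones.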

How the data were processed

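RNA was measured in 27 libraries of 3 human CRC lines. By the study's methods, stranded TruSeq mRNA libraries were read as 100-base single reads, and the authors removed adaptors (Trimmomatic 0.38), aligned to hg19 by TopHat2 2.1.1 (Bowtie2 2.2.8 and SAMtools 0.1.18 in the submitters' notes) and deposited FPKM from Cufflinks 2.2.1, or Cuffdiff 2.2.1 by the notes. The options, the use of strand and the read numbers of these steps were not given in the sources used here.

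TPM are FPKM over their sum in a library (451767 to 804635). FPKM below 0.1 step in whole reads, which gave relative depths and the reads of 6 members (within 0.05 of a whole number for all low values but 1 of LGALS4), and limits from reads cover counting error only. On log2(TPM + 1), limma 3.58.1 in R 4.3.3 (lmFit, eBayes with trend, 2-sided) was fitted to the 9 libraries of each line, or to all 27 for comparisons between lines, on genes that reached 1 TPM in 3 libraries or more. A Wilcoxon test, which the study used, cannot reach a p under 0.05 with 3 against 3 libraries. How the study grouped its libraries for that test was not stated. Responses were compared among lines with limma's F test, called with a span of the 3 log2 fold changes above 1. Python 3.11.15 with pandas 2.3.3 was used, and limma was checked on simulated data.

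The 8 members and the other gene lists were chosen with earlier results of these data known. All members are described; of other lists, up to 3 called genes with the largest log2 fold change per list and drug are named, besides markers of cell types, and for likeness the 3 genes with the highest r. A few genes of the other lists that the rule selects are not reported here. Enterocyte genes at low levels were chosen after their values were seen. Gene positions came from GENCODE v44 lifted to GRCh37, and promoters from RefSeq. Alternatives were a pseudocount of 0.1, no filter, FPKM as deposited, median-of-ratios scaling, eBayes without trend, a replicate block and each library left out. Counts of the other lists under other scalings were added after seeing the data.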

Additional observations from a re-analysis of the deposited data

Results flagged for a closer look

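Responses of 6 members were compared among the 3 lines with limma's F test over 27 libraries, with a difference called at an adjusted p under 0.05 and a span of the 3 log2 fold changes above 1. Over all genes this held for 38.7% for 5-FU and 39.3% for OX. CDH17 and LGALS4 reached 1 TPM in DLD-1 alone and VIL1 in SW480 alone, so they entered the test only through the line that expresses them. Their spans were set by their absence elsewhere and are values, not evidence of unequal responses, which leaves CDX2, HNF4A and DPP4 for 5-FU and DPP4 for OX. The DLD-1 libraries carry a separate run of library names, so line and library set cannot be told apart for them.

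For 5-FU, CDX2 had the widest span at 2.59, with log2 fold changes of -0.18 in HCT116, -2.77 in SW480 and -1.08 in DLD-1 (adjusted p = 8.33e-16). HNF4A spanned 1.82, with -0.06 in HCT116, where it was close to absent, 1.39 in SW480 and -0.44 in DLD-1 (adjusted p = 1.12e-10), so that the line in which CDX2 fell most was the one in which HNF4A rose. LGALS4 spanned 1.77, with 0.40, 0.44 and -1.33 (adjusted p = 3.62e-06), and CDH17 spanned 1.53, with 0.05, 0.07 and -1.46 (adjusted p = 3.17e-13). Both were at or near 0 in HCT116 and SW480, so a fall could not have been seen there. DPP4 spanned 1.48, with -0.75, 0.73 and -0.50 (adjusted p = 4.92e-09), where the SW480 value rests on WT libraries of 0 to 2 reads each. VIL1 did not pass, with a span of 0.65.

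For OX, DPP4 had the widest span at 4.32, with log2 fold changes of 0.95 in HCT116, 0.30 in SW480 and -3.38 in DLD-1 (adjusted p = 3.15e-17). LGALS4 spanned 2.67, with 0.41, 0.45 and -2.22 (adjusted p = 6.02e-09), and CDH17 spanned 1.60, with -0.01, -0.01 and -1.61 (adjusted p = 1.13e-13), under the same limit as for 5-FU. VIL1 spanned 1.002, just past the threshold, with 0 in HCT116, where it was not detected, -1.002 in SW480 and -0.11 in DLD-1 (adjusted p = 2.9e-07). CDX2 and HNF4A did not pass, with spans of 0.86 and 0.57.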

How the results depend on the processing

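Counts of members called moved by more than 1.5 times under other settings in 5 of their recomputations and stayed in 79. With a pseudocount of 0.1 they went from 0 to 1 in HCT116 5-FU res against WT and in HCT116 OX res against WT (DPP4 in both), and from 1 to 2 in DLD-1 5-FU res against OX res (LGALS4 added). With FPKM as deposited or median-of-ratios scaling the count went from 2 to 1 in SW480 5-FU res against WT (HNF4A lost). Leaving out 1 library, the count ran from 0 to 1 in HCT116 OX res against WT (1 without OX res replicate 3 or WT replicate 1) and from 0 to 1 in SW480 OX res against WT (0 without OX res replicate 1, OX res replicate 2 or WT replicate 3), and it was constant in the other 10 comparisons. The log2 fold change of CDX2 reversed in HCT116 OX res against WT, to -0.34 with FPKM as deposited and -0.44 with median-of-ratios scaling, and in HCT116 5-FU res against OX res, from -0.36 to 0.0096 with median-of-ratios scaling. Under other settings 278 log2 fold changes kept their direction and their side of the threshold, 3 reversed, 4 passed it anew and 3 no longer did, and all 72 spans kept theirs. With the replicate number as a block, the counts were 0, 0 and 1 in HCT116, 2, 1 and 3 in SW480 and 3, 3 and 1 in DLD-1, as without it, and no call changed. Deviations of same-numbered libraries correlated above 0.1 in 3 of 9 pairs in HCT116 (-0.196 to 0.222), 1 of 9 in SW480 and 1 of 9 in DLD-1. These values carry no test and do not settle whether same-numbered libraries were paired, which the sources leave unsaid. CDX1 and FABP1 were at or under a few reads, and depth limits what can be said of them. The cause of each change was not tested, apart from the pseudocount, which by construction widens the changes of genes near 1 TPM.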
